A study of Mus musculus with 42 samples.

Results

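The hepatocyte identity transcription factors described here are 8 genes, Hnf4a, Foxa1, Foxa2, Foxa3, Cebpa, Cebpb, Onecut1 and Prox1, out of 54446 genes in the count table. They were chosen by name, as regulators known for their role in hepatocytes, and all 8 passed the filter on low counts. HNF4A is a nuclear receptor that holds adult liver genes on, including those of lipoprotein assembly, bile acid synthesis and clotting. The FOXA proteins open chromatin at liver enhancers before other factors bind, and C/EBPα and C/EBPβ are basic leucine zipper proteins that share binding sites, C/EBPα with metabolic genes and C/EBPβ with the acute phase response and liver regeneration. ONECUT1, also called HNF6, acts in hepatocytes and bile duct cells, and PROX1 is a homeobox protein that marks the earliest hepatoblasts, binds HNF4A as a corepressor and is also found in lymphatic endothelium. These factors bind each other's promoters and are often treated as 1 network.

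Liver RNA came from 42 female APOE*3-Leiden mice, which carry a human apolipoprotein E3-Leiden transgene that slows the clearance of lipoprotein remnants, with 1 library per mouse. The Chow group (n = 10) stayed on maintenance chow, the WTD group (n = 16) received a semi-synthetic Western-type diet with 1% cholesterol, 15% cocoa butter and 40.5% sucrose, and the WTD+Atorvastatin group (n = 16) received the same diet with atorvastatin, an inhibitor of HMG-CoA reductase. The diet began at an age of 8 to 14 weeks with a run-in of 3 weeks, 0.05% cholate was added from week 22, the atorvastatin dose was 3.0 mg/kg/day and then 4.5 mg/kg/day from week 5, and livers were taken at week 32. No allele other than the transgene is named for any group. The comparison of WTD-fed with chow-fed mice addresses the effect of the diet, and that of atorvastatin-treated with WTD-fed mice the effect of the drug on that diet. The comparison of atorvastatin-treated with chow-fed mice shows what difference from the reference was left, and the 3 comparisons share their groups.

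Gene counts ranged from 15661381 to 36224054 per library (median 19421089.5). Levels are given in CPM, counts per 1000000 gene counts. In 9 libraries (3 Chow, 5 WTD, 1 WTD+Atorvastatin), over 20% of the weak genes, those at a mean of 1 to 2 CPM in the library's own group, had no count at all, with up to 57.3% in chow-fed mouse AZ2, and results that changed without these libraries are given with and without them. The label of the tissue was checked against 15 hepatocyte markers, whose summed level was 146150 CPM in chow-fed mice at the median (127701 to 185737), 86466 CPM in WTD-fed mice (69524 to 125052) and 127983 CPM in atorvastatin-treated mice (79418 to 150261). Summed macrophage markers went from a median of 375 CPM to 2174 and 1375 CPM, stellate cell markers from 285 CPM to 1515 and 864 CPM and cholangiocyte markers from 124 CPM to 596 and 338 CPM in the same order of groups. Whole liver was sequenced, so that fewer hepatocytes and less of an mRNA per hepatocyte cannot be told apart, and the part of these markers in the results below was not tested.

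All positions are on GRCm38. Hnf4a (ENSMUSG00000017950) lies on the plus strand of chromosome 2 from 163506808 to 163572910. Its coding transcripts start either at 163506808, the upstream promoter known as P2, or at 163547187 and downstream of it, at the promoter known as P1 that adult liver uses. The antisense gene Hnf4aos (chromosome 2, 163493807 to 163541720, minus strand) starts between them and runs over the upstream start, covering 34913 bases of the Hnf4a span. Prox1 (ENSMUSG00000010175, chromosome 1, 190118035 to 190170714, minus strand) faces Prox1os (190170296 to 190217276, plus strand) head to head with an overlap of 419 bases that includes the Prox1 start. Cebpa (ENSMUSG00000034957, chromosome 7, 35119293 to 35121928, plus strand) and Cebpb (ENSMUSG00000056501, chromosome 2, 167688915 to 167690418, plus strand) are single-exon genes. Foxa1 (ENSMUSG00000035451) is on chromosome 12 from 57540628 to 57546916, Foxa2 (ENSMUSG00000037025) on chromosome 2 from 148042877 to 148046969 and Foxa3 (ENSMUSG00000040891) on chromosome 7 from 19013284 to 19023538, each on the minus strand. Onecut1 (ENSMUSG00000043013) is on the plus strand of chromosome 9 from 74861921 to 74891781.

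The sequences before the starts of the 3 factors that were lower in WTD-fed mice, and of the antisense partner of Hnf4a, are shown because the report turns on these genes and because the factors are known to bind each other's promoters. They were read 5′ to 3′ on the gene's own strand from the RefSeq promoter table for GRCm38.p6 (all 8 factors and Hnf4aos matched). Capitals mark matches to 6 short motifs searched on both strands, CAAAGT for HNF4, TGTTTAC and TGTTTGC for FOXA, ATCGAT and ATTGAT for ONECUT and TTGCNNAA for C/EBP. For the upstream Hnf4a start, the 49 bases that an annotated transcript covers were left off.
Hnf4a, upstream start, chr2:163506607-163506807, plus strand: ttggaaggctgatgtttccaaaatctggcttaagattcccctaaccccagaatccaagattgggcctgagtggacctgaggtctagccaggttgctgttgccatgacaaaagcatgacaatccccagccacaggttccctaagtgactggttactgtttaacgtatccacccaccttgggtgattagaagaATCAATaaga
Hnf4a, downstream start, chr2:163546905-163547154, plus strand: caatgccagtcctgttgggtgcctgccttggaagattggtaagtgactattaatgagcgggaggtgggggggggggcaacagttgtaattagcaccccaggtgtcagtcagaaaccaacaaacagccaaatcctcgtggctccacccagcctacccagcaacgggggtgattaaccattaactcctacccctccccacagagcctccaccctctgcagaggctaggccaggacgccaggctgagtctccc
Hnf4aos, chr2:163541722-163541971, minus strand: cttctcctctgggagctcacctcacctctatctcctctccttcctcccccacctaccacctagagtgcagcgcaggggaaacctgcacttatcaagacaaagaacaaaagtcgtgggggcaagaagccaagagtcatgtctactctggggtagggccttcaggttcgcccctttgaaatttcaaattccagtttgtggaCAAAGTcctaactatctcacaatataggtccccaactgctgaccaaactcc
Cebpa, chr7:35119043-35119292, plus strand: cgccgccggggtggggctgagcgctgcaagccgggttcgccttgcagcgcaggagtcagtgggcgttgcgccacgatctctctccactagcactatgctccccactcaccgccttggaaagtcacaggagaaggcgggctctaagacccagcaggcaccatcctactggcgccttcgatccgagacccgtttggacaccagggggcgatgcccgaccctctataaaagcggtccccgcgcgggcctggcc
Prox1, chr1:190170828-190171077, minus strand: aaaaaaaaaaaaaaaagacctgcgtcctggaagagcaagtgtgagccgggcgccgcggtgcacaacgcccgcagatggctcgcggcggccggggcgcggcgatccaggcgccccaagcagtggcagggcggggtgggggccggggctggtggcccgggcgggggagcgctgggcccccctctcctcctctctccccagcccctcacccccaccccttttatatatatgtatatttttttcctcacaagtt

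Positions of matches are counted from the RefSeq start of each window. The upstream Hnf4a window held 1 ONECUT match (ATTGAT, in 6.72% of 32851 promoter windows of 250 bases) at 59 bases before the RefSeq start, which lies 49 bases after the start given above, and the Hnf4aos window 1 HNF4 match (CAAAGT, in 12.6% of windows) at 51 bases before its start. The downstream Hnf4a window and the Cebpa and Prox1 windows shown held none of the 6 motifs, which says only that these letters are not in these windows. The C/EBP motif TTGCNNAA, present in 9.56% of all windows, was in none of the windows of the 8 factors. The FOXA motifs TGTTTAC and TGTTTGC were in 3.17% and 4.30% of windows. The Foxa1 window held TGTTTAC at 141 bases before its RefSeq start, overlapping an HNF4 match at 136 bases. That of a second Prox1 start held TGTTTGC at 120 bases. Each of these windows lies inside the annotated span of its gene, not upstream of it. The window of the most upstream Foxa2 start held an ONECUT match (ATTGAT) at 213 bases before it. That of another start, which lies inside the annotated Foxa2 span, held an HNF4 match at 172 bases. The ONECUT motif ATCGAT, in 0.728% of all windows, was in none of the windows of the 8 factors. A match is a description of the letters and was not measured as binding here.

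Levels of the factors can be set side by side only per length, here as CPM per kilobase of annotated exon. In chow-fed mice, Cebpa had a median of 149 CPM per kilobase (131.5 to 175.3) and Hnf4a 118.5 (86.3 to 143.8), and Cebpa was above Hnf4a in all 10 mice although the ranges overlapped. Foxa3 followed with 29.7 CPM per kilobase, Foxa2 with 19.6, Cebpb with 13.6, Prox1 with 13.2, Foxa1 with 4.16 and Onecut1 with 0.189. Cebpb and Prox1 were not separated in chow-fed mice, since Cebpb was above Prox1 in 5 of 10. In WTD-fed mice the order of the medians was the same, but Foxa2 (15.2 CPM per kilobase) was above Cebpb (14.5) in only 7 of 16. In atorvastatin-treated mice Cebpa (132.8 CPM per kilobase) was above Hnf4a (120) in 11 of 16, and Cebpb (18.2) stood between Foxa3 (19.7) and Foxa2 (17.2), with Cebpb above Foxa2 in 7 of 16. The study says that reads on the transcript region were counted, and does not say whether introns belonged to it. Of 379 coding genes nested in another on the same strand, 376 had no counts, from which counting over whole gene spans, introns included, was inferred. Levels per kilobase of exon are therefore less sure between genes with introns, and against Cebpa and Cebpb, which have none.

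**Figure D1:**
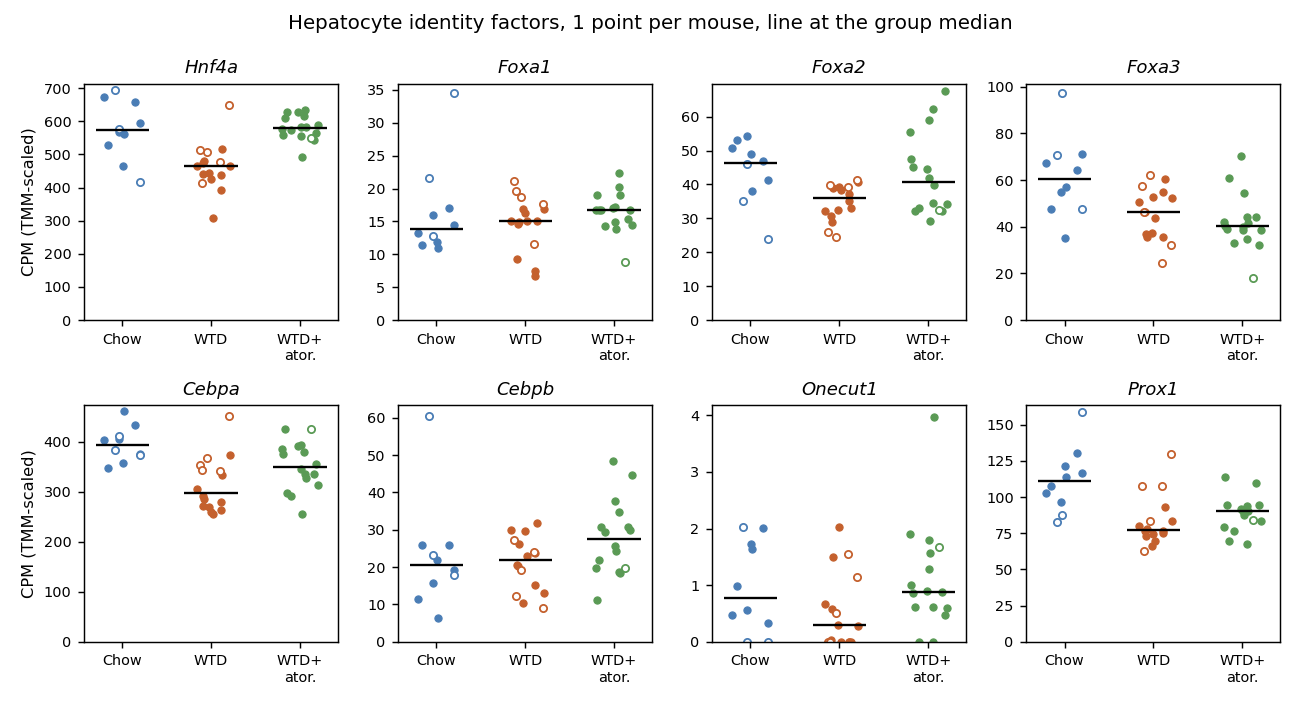
Levels of the 8 factors in CPM with TMM-scaled library sizes (y axis, from 0) in each mouse of the 3 groups (x axis), with a line at the group median and open points for the 9 libraries that lacked over 20% of weak genes. The Hnf4a median was 572 CPM in chow-fed, 465 CPM in WTD-fed and 579 CPM in atorvastatin-treated mice, and the groups overlapped for every factor.

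Of the 8 factors, 3 were lower in WTD-fed than in chow-fed mice at an adjusted p under 0.01 (edgeR quasi-likelihood test, Benjamini-Hochberg adjustment over 15574 tested genes), namely Hnf4a, Cebpa and Prox1, and none was higher. Over all tested genes 33.5% were called in this comparison, 16% of them lower and 17.5% higher, where each share is of the 15574 genes. With atorvastatin 1 factor, Hnf4a, was higher than in WTD-fed mice and none was lower, against 7.1% of all genes called (4.84% higher and 2.26% lower). Foxa3 and Prox1 were lower in atorvastatin-treated than in chow-fed mice, against 25% of all genes called (14.2% higher and 10.7% lower). The median log2 fold change of the 8 factors was -0.33 for the diet (0.03 over all tested genes), 0.23 for atorvastatin on the diet (0.0016 over all) and -0.01 for atorvastatin-treated against chow-fed mice (0.04 over all).

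These differences are relative to the bulk of the genes, because of how the libraries were scaled. The TMM method, which sets library sizes so that most genes do not differ, multiplied library totals by 0.884 on average in chow-fed, 1.10 in WTD-fed and 0.984 in atorvastatin-treated mice. With total counts as library sizes, an alternative added after seeing the data, the median of all genes moved by 0.32 on the log2 scale for WTD against Chow, by -0.16 for WTD+Atorvastatin against WTD and by 0.15 for WTD+Atorvastatin against Chow, and no factor was called by edgeR in any comparison (at an unadjusted p under 0.05, none was lower or higher on the diet, 1 differed with atorvastatin and 3 between atorvastatin-treated and chow-fed mice). Scaling to the hepatocyte markers moved the median by 0.78, -0.41 and 0.37 in the same order, and then 5 factors (Hnf4a, Foxa1, Foxa2, Cebpa and Prox1) were called higher in WTD-fed mice, and Foxa3, Cebpa and Prox1 lower with atorvastatin. Over all genes, 5151 were called higher and 1100 lower on the diet with total counts (2729 and 2495 with TMM), and 330 higher and 1022 lower with atorvastatin (754 and 352 with TMM). Scaled to hepatocyte markers, 9379 of all 15574 genes were called higher and 342 lower on the diet, and 73 higher and 4496 lower with atorvastatin. Calls of the factors under that scaling are to be read against these numbers. Set against the median of all genes, the diet difference of Hnf4a was -0.34 with TMM and -0.35 with total counts. Relative to the median of all genes, all 8 factors were lower in WTD-fed mice, while 7 of 8, all but Onecut1, were higher relative to the hepatocyte markers. A new library size moves all genes by nearly the same amount. Values against the median of all genes were therefore bound to agree under TMM, total counts and hepatocyte markers, and this agreement is no separate support.

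**Figure D2:**
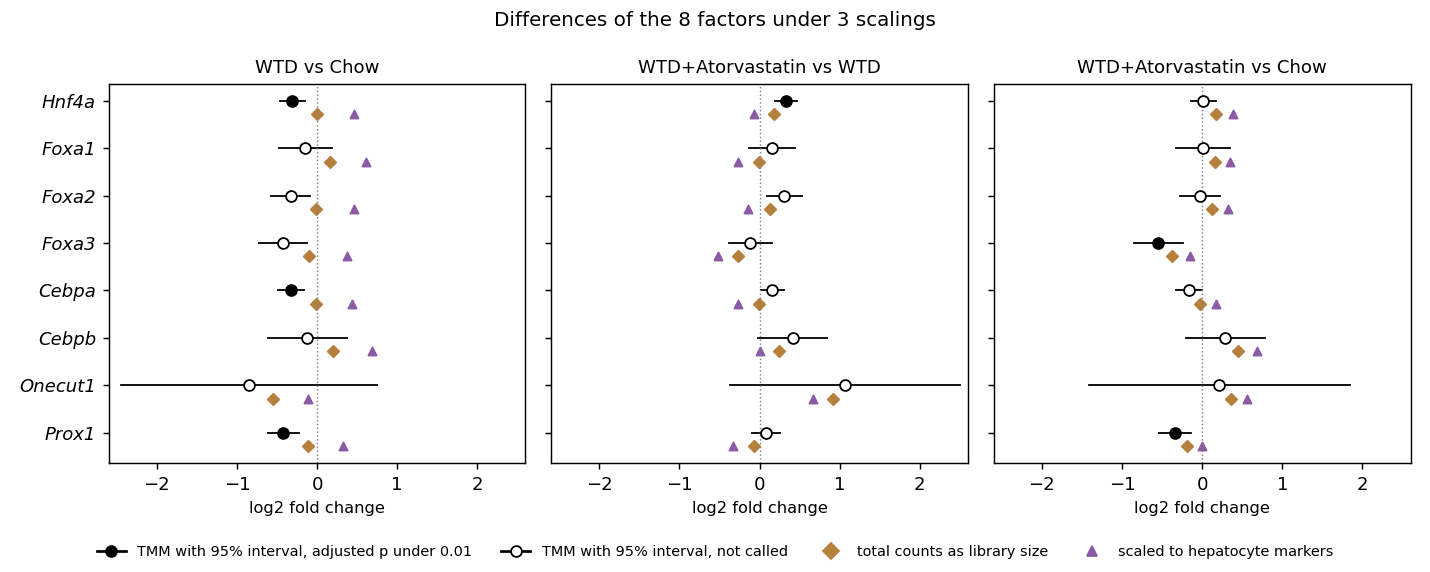
Log2 fold changes (x axis) of the 8 factors (y axis) in the 3 comparisons, with circles and 95% intervals for TMM scaling, filled where the adjusted p was under 0.01, diamonds for total counts as library sizes and triangles for scaling to hepatocyte markers. For Hnf4a in WTD-fed against chow-fed mice the circle stands at -0.31, the diamond at -0.0032 and the triangle at 0.46.

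Hnf4a was lower in WTD-fed mice and higher again in atorvastatin-treated mice. Its level ran from 416.5 to 694 CPM with a median of 572 CPM in chow-fed mice, from 308 to 648.5 CPM with a median of 465 CPM in WTD-fed mice, and from 491 to 634 CPM with a median of 579 CPM in atorvastatin-treated mice. The ranges overlapped, but 15 of 16 WTD-fed mice were below the chow-fed median and 16 of 16 atorvastatin-treated mice were above the WTD-fed median. The highest WTD-fed mouse, Gen20, is 1 of the 9 libraries with many missing weak genes. Hnf4a fell by 19.3% on the diet (log2 fold change -0.31, SE 0.08, adjusted p = 0.000787) and was 25.3% higher with atorvastatin than without (log2 fold change 0.33, SE 0.07, adjusted p = 0.000639). Between atorvastatin-treated and chow-fed mice the log2 fold change was 0.02 with a 95% interval from -0.14 to 0.17 (adjusted p = 0.903). With total counts as library sizes the diet difference was -0.0032 and not called, and that with atorvastatin 0.17 (adjusted p = 0.0473), and scaled to hepatocyte markers they were 0.46 (adjusted p = 4.9e-05) and -0.07 (adjusted p = 0.503). Hnf4a in atorvastatin-treated against chow-fed mice was 0.17 (adjusted p = 0.0557) with total counts and 0.39 (adjusted p = 0.000937, called) scaled to hepatocyte markers. The spread among mice was smaller with atorvastatin, with a coefficient of variation of 6.54% against 15.5% in WTD-fed and 15.4% in chow-fed mice, which was not tested.

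Hnf4g, the close relative of Hnf4a known from gut and kidney, had few counts and log2 fold changes of 1.33 (SE 0.62, adjusted p = 0.0755) on the diet and -0.15 (SE 0.51, adjusted p = 0.914) with atorvastatin. The diet value was called when scaled to hepatocyte markers (2.13, adjusted p = 0.00341).

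The gene that ran antisense to Hnf4a differed far more than Hnf4a itself. Hnf4aos was at 28.9 to 53.4 CPM (median 41.5) in chow-fed mice, 3.93 to 15.9 CPM (median 9.17) in WTD-fed mice and 9.76 to 28.1 CPM (median 16.5) in atorvastatin-treated mice, so that every chow-fed mouse was above every mouse of the other groups. Its log2 fold change was -2.12 on the diet (SE 0.16, adjusted p = 2.37e-16), 0.80 with atorvastatin against WTD (SE 0.14, adjusted p = 7.68e-05) and -1.31 for atorvastatin-treated against chow-fed mice (SE 0.16, adjusted p = 1.3e-09). The diet difference stayed called under all 13 other settings, from -2.29 to -1.37, and the difference with atorvastatin was called under 12 of 13, with 0.39 (adjusted p = 0.0174) when scaled to hepatocyte markers.

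A ratio within each library does not depend on scaling, so Hnf4aos counts were also set against Hnf4a counts, a comparison chosen after seeing the data. There were 7.57 Hnf4aos counts for 100 Hnf4a counts at the median in chow-fed mice (5.03 to 8.49), 2.00 in WTD-fed mice (1.28 to 2.79) and 2.93 in atorvastatin-treated mice (1.54 to 4.61). The mean log2 ratio differed by -1.85 (SE 0.11) between WTD-fed and chow-fed mice, by 0.47 (SE 0.14) between atorvastatin-treated and WTD-fed mice and by -1.38 (SE 0.13) between atorvastatin-treated and chow-fed mice. In a 2-sided permutation test with 100000 permutations the adjusted p values over the 3 comparisons were 1.5e-05, 0.00207 and 1.5e-05, where 1e-05 is the smallest unadjusted p the permutations can give. Without the 9 libraries the differences were -1.96, 0.48 and -1.48, with adjusted p values of 4.5e-05, 0.00717 and 4.5e-05. The libraries were strand-specific and the counting used the strand, since only 141 of 537 coding genes nested in another on the opposite strand had no counts, against 376 of 379 on the same strand. For 21 genes that lie wholly opposite exons of genes at 100 CPM or more, counts per kilobase were 0.172% of the host gene at the median and 1.70% at most.

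**Figure D3:**
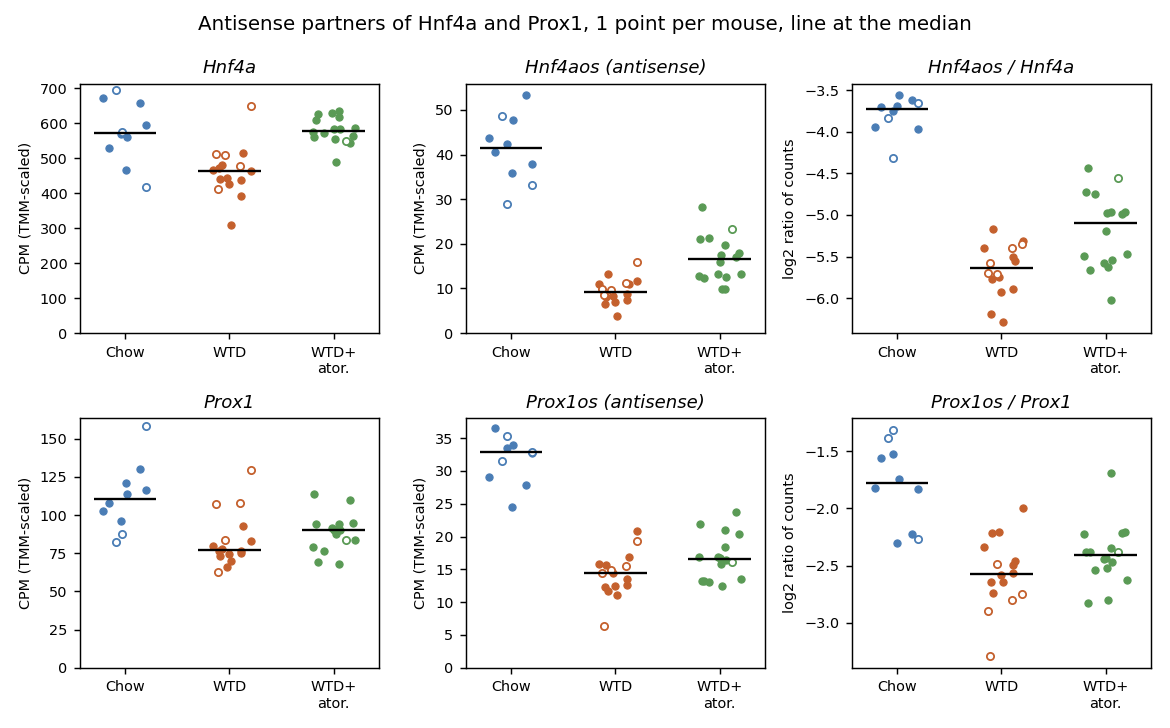
Hnf4a and Prox1 (left), their antisense partners (middle), each in CPM with TMM-scaled library sizes on a y axis from 0, and the log2 ratio of the counts of the partners (right), for each mouse of the 3 groups with a line at the median and open points for the 9 libraries that lacked over 20% of weak genes. The median of Hnf4aos was 41.5 CPM in chow-fed, 9.17 CPM in WTD-fed and 16.5 CPM in atorvastatin-treated mice.

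Prox1 was lower in both groups on the Western-type diet, without a called difference between them. It ranged from 82.4 to 158.5 CPM (median 111) in chow-fed mice, from 62.9 to 130 CPM (median 77.3) in WTD-fed mice and from 67.9 to 114 CPM (median 90.3) in atorvastatin-treated mice. The groups overlapped, and 15 of 16 mice of each diet group were below the chow-fed median. Prox1 fell by 25.2% on the diet (log2 fold change -0.42, SE 0.10, adjusted p = 0.000361) and was lower in atorvastatin-treated than in chow-fed mice (log2 fold change -0.34, SE 0.10, adjusted p = 0.00533), while the value for atorvastatin against WTD was 0.08 (95% interval -0.09 to 0.26, adjusted p = 0.634). With limma-voom and quality weights this difference was called (0.26, adjusted p = 0.00128). Scaled to hepatocyte markers it was called in the other direction (-0.33, adjusted p = 0.00367). The call against chow-fed mice with atorvastatin was lost without chow-fed mouse AZ1, AZ2 or AZ7 (adjusted p from 0.0109 to 0.0261) and with the share of missing weak genes as a covariate (-0.29, adjusted p = 0.0286). With total counts the diet difference was -0.12 (adjusted p = 0.272), and scaled to hepatocyte markers it was 0.33 (adjusted p = 0.00619). That between atorvastatin-treated and chow-fed mice was -0.19 (adjusted p = 0.0765) and -0.0070 (adjusted p = 0.965) in the same order, neither called.

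Prox1os, which faces Prox1, differed more than Prox1. Its range was 24.5 to 36.5 CPM (median 32.8) in chow-fed mice, 6.38 to 20.9 CPM (median 14.4) in WTD-fed mice and 12.5 to 23.7 CPM (median 16.5) in atorvastatin-treated mice, and no chow-fed mouse overlapped the other groups. The log2 fold change was -1.16 on the diet (SE 0.12, adjusted p = 2.24e-11), 0.24 with atorvastatin against WTD (SE 0.11, adjusted p = 0.153) and -0.92 for atorvastatin-treated against chow-fed mice (SE 0.12, adjusted p = 2.8e-08). The diet difference of Prox1os was -0.85 (adjusted p = 2.93e-08) with total counts and -0.39 (adjusted p = 0.00768) scaled to hepatocyte markers. Within libraries there were 29.1 Prox1os counts for 100 Prox1 counts at the median in chow-fed, 16.8 in WTD-fed and 18.8 in atorvastatin-treated mice. The mean log2 ratio differed by -0.77 (SE 0.14) on the diet, 0.16 (SE 0.10) with atorvastatin and -0.61 (SE 0.13) between atorvastatin-treated and chow-fed mice, with adjusted p values of 3e-05, 0.119 and 0.000165 in the permutation test. Without the 9 libraries these differences were -0.58, 0.04 and -0.55, with adjusted p values of 0.000735, 0.733 and 0.000735 in the same test. A second antisense gene inside Prox1, Gm28172, had medians of at most 0.444 CPM and was not called in any comparison. Prox2, a relative of Prox1, had log2 fold changes of -0.10 (SE 0.31, adjusted p = 0.822) on the diet and 0.16 (SE 0.27, adjusted p = 0.803) with atorvastatin.

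Cebpa was lower in WTD-fed mice, and in atorvastatin-treated mice it lay between the other groups. Levels ran from 347 to 462 CPM (median 393) in chow-fed mice, from 256 to 451.5 CPM (median 298) in WTD-fed mice and from 254 to 425 CPM (median 350) in atorvastatin-treated mice. All groups overlapped, with 15 of 16 WTD-fed mice below the chow-fed median and Gen20 again the highest of them. Cebpa fell by 20.1% on the diet (log2 fold change -0.32, SE 0.08, adjusted p = 0.00096), and the differences of atorvastatin-treated mice were 0.16 from WTD-fed mice (SE 0.07, adjusted p = 0.16) and -0.17 from chow-fed mice (SE 0.08, adjusted p = 0.114). Cebpa was called higher with atorvastatin without the 9 libraries (0.26, adjusted p = 0.00915) and with limma-voom and quality weights (0.26, adjusted p = 0.000556). Scaled to hepatocyte markers it was called lower with atorvastatin (-0.27, adjusted p = 0.00205). With total counts the diet difference was -0.02 (adjusted p = 0.842), and scaled to hepatocyte markers it was 0.44 (adjusted p = 4.67e-06). Gm45091, which lies antisense over 313 bases at the Cebpa start, had medians of 1.80, 1.35 and 1.77 CPM in chow-fed, WTD-fed and atorvastatin-treated mice and was not called.

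Cebpb varied widely among mice of the same group and was not called in any comparison. It was at 6.37 to 60.6 CPM (median 20.5) in chow-fed mice, 8.92 to 31.8 CPM (median 21.8) in WTD-fed mice and 11.3 to 48.5 CPM (median 27.4) in atorvastatin-treated mice, with a coefficient of variation of 64.2%, 34.8% and 36.0%. The groups overlapped over most of their ranges, and the highest chow-fed mouse, AZ5, is a library with 43.1% of weak genes missing. The log2 fold change was -0.12 on the diet (95% interval -0.61 to 0.37, adjusted p = 0.719), 0.41 with atorvastatin (-0.02 to 0.84, adjusted p = 0.23) and 0.29 for atorvastatin-treated against chow-fed mice (-0.21 to 0.79, adjusted p = 0.392). The sign of the diet difference turned without the 9 libraries (0.30, adjusted p = 0.371), with total counts (0.20, adjusted p = 0.533) and with scaling to hepatocyte markers (0.69, adjusted p = 0.0231), none of which was called. Tmem189, whose annotated span covers 908 bases of Cebpb on the other strand, was at medians of 2.75, 1.47 and 2.13 CPM in chow-fed, WTD-fed and atorvastatin-treated mice and was not called.

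The balance of the C/EBP factors was compared as the log2 ratio of Cebpb to Cebpa counts within each library. There were 5.38 Cebpb counts for 100 Cebpa counts at the median in chow-fed mice (1.38 to 15.8), 7.32 in WTD-fed mice (1.98 to 11.4) and 8.81 in atorvastatin-treated mice (3.01 to 14.3). The mean log2 ratio was 0.34 higher in WTD-fed than in chow-fed mice (SE 0.34), 0.26 higher with atorvastatin than in WTD-fed mice (SE 0.23) and 0.59 higher in atorvastatin-treated than in chow-fed mice (SE 0.33), and none passed the permutation test at an adjusted p under 0.05 (adjusted p = 0.299, 0.299 and 0.169 over the 3 comparisons). Without the 9 libraries the differences from chow-fed mice were 0.81 (adjusted p = 0.0347) and 0.90 (adjusted p = 0.0238), under 0.05 but over the 0.01 used for single genes. AZ5 is among these libraries.

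The other C/EBP genes and their partners did not move as 1 group. Cebpd, an acute phase member of the family, rose on the diet by 1.27 on the log2 scale (SE 0.20, adjusted p = 8.25e-07) from a median of 5.04 to 13.6 CPM and was lower with atorvastatin (7.64 CPM, log2 fold change -0.83, SE 0.17, adjusted p = 0.000529). Every WTD-fed mouse was above the chow-fed median and every atorvastatin-treated mouse below the WTD-fed median. Cebpe, known from granulocytes, had a log2 fold change of -0.53 on the diet (adjusted p = 0.0155) and was lower in atorvastatin-treated than in chow-fed mice (-0.72, SE 0.18, adjusted p = 0.00156), a call lost with total counts (-0.57, adjusted p = 0.0142) and scaled to hepatocyte markers (-0.34, adjusted p = 0.187). Cebpg, a partner without an activation domain, had 0.05, 0.02 and 0.07 in the 3 comparisons and was not called with TMM. It was called on the diet with total counts (0.36, adjusted p = 0.00123), and in all 3 comparisons scaled to hepatocyte markers (0.83, -0.38 and 0.45). Ddit3, which encodes the stress-induced partner CHOP and of which a second annotated copy covers 53.0% of the span, had log2 fold changes of -0.40 (adjusted p = 0.13) and -0.29 (adjusted p = 0.394). Of the Tribbles genes, Trib1 and Trib2 encode proteins that direct C/EBPα to degradation. Trib2 rose on the diet from a median of 3.72 to 6.96 CPM (log2 fold change 1.11, SE 0.29, adjusted p = 0.0016). Trib1 (-0.02, adjusted p = 0.901) and Trib3 (0.21, adjusted p = 0.501) were not called with TMM.

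The 3 FOXA genes were not called between WTD-fed and chow-fed mice. Foxa1 ran from 11.0 to 34.6 CPM (median 13.9) in chow-fed mice, from 6.69 to 21.1 CPM (median 15.1) in WTD-fed mice and from 8.83 to 22.3 CPM (median 16.8) in atorvastatin-treated mice. The groups overlapped, and its log2 fold changes were -0.14 (95% interval -0.48 to 0.19, adjusted p = 0.506) on the diet and 0.15 (-0.14 to 0.45, adjusted p = 0.589) with atorvastatin. The highest chow-fed mouse was AZ2, the library with the most missing weak genes, and without it the diet value of Foxa1 was 0.04. With total counts it was 0.16 and scaled to hepatocyte markers 0.61 (adjusted p = 0.00488).

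Foxa2, which controls bile acid and fasting genes, lay at 23.9 to 54.2 CPM (median 46.4) in chow-fed mice, 24.6 to 41.2 CPM (median 36.1) in WTD-fed mice and 29.1 to 67.6 CPM (median 40.8) in atorvastatin-treated mice. All 16 WTD-fed mice were below the chow-fed median, and the log2 fold change was -0.33 (SE 0.12, adjusted p = 0.0261), over the threshold of 0.01. Without chow-fed mouse AZ2, the lowest of its group, the adjusted p was 0.00458 (log2 fold change -0.40), and without all 9 libraries it was 0.00597 (-0.44). With limma-voom and quality weights Foxa2 was called on the diet (-0.47, adjusted p = 0.0026) and with atorvastatin (0.35, adjusted p = 0.00674). With total counts the value was -0.01 (adjusted p = 0.928), and scaled to hepatocyte markers it was 0.46 (adjusted p = 0.000879). With atorvastatin it was 0.31 (SE 0.11, adjusted p = 0.0519), and 9 of 16 treated mice were above the WTD-fed median.

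Foxa3 had the highest median per kilobase of exon of the FOXA genes in each group, a measure that is less sure if introns were counted. Its levels were 35.0 to 97.3 CPM (median 60.5) in chow-fed mice and 24.6 to 62.1 CPM (median 46.4) in WTD-fed mice. In atorvastatin-treated mice they were 18.1 to 70.3 CPM (median 40.1). The groups overlapped, with 14 of 16 atorvastatin-treated mice below the chow-fed median. The log2 fold change was -0.43 on the diet (SE 0.15, adjusted p = 0.0179), -0.12 with atorvastatin against WTD (SE 0.13, adjusted p = 0.672) and -0.55 for atorvastatin-treated against chow-fed mice (SE 0.15, adjusted p = 0.00339). The last call was lost without chow-fed mouse AZ6, the highest of its group (-0.45, adjusted p = 0.0159), without the 9 libraries (-0.38, adjusted p = 0.0205) with total counts (-0.38, adjusted p = 0.0634) and scaled to hepatocyte markers (-0.15, adjusted p = 0.531). The diet difference was called without chow-fed mouse AZ1 (adjusted p = 0.00549) or atorvastatin-treated mouse Gen29 (adjusted p = 0.0084), and with limma-voom and quality weights (-0.43, adjusted p = 0.0086).

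Onecut1 could hardly be measured with these files. The annotated noncoding gene Gm20649 covers 29556 of the 29861 bases of Onecut1 on the same strand, and Gm20649 itself had 0 counts. If reads were counted over whole gene spans, which is inferred here from nested genes without counts, 305 bases belong to Onecut1 alone in the GENCODE vM21 positions used here, a later release than the study names. Onecut1 had 768 counts in all 42 libraries together, none at all in 2 chow-fed, 6 WTD-fed and 2 atorvastatin-treated mice and at most 100. Other genes of the lists whose span is covered like this had next to no counts either, with 9 counts in all for transferrin (Trf, 99.5% covered), which is among the most abundant liver mRNAs, and 0 for Hpd (100% covered). The medians of 0.779, 0.293 and 0.881 CPM in chow-fed, WTD-fed and atorvastatin-treated mice cannot be read as the level of the gene. Its log2 fold changes were -0.85 (SE 0.79, adjusted p = 0.405) and 1.07 (SE 0.71, adjusted p = 0.388) on the diet and with atorvastatin, and the 95% interval of the diet value ran from -2.45 to 0.74.

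Onecut2, which shares the binding sites of ONECUT1 and is free of such an overlap, had lower mRNA in both groups on the Western-type diet. It was at 119.5 to 170.4 CPM (median 144) in chow-fed mice, 73.6 to 105 CPM (median 83.4) in WTD-fed mice and 64.0 to 96.6 CPM (median 81.4) in atorvastatin-treated mice, and no chow-fed mouse overlapped the others. The log2 fold change was -0.77 on the diet (SE 0.07, adjusted p = 2.16e-14) and -0.03 with atorvastatin (95% interval -0.14 to 0.09, adjusted p = 0.855). With total counts the diet difference was -0.46 (adjusted p = 7.8e-07), and scaled to hepatocyte markers 0.01 (adjusted p = 0.968). Of the 11 relatives and partners reported, 10 were tested, and 2 were called higher and 1 lower on the diet, 0 higher and 1 lower with atorvastatin against WTD, and 0 higher and 2 lower in atorvastatin-treated against chow-fed mice. The medians of this list were 0.01, -0.13 and 0.09. With scaling to hepatocyte markers, 6 were called higher and none lower on the diet, and 4 lower and none higher with atorvastatin. Of all 15574 tested genes, 9379 were then called higher and 342 lower on the diet, and 73 higher and 4496 lower with atorvastatin. With TMM, 17.5% of all genes were called higher and 16% lower on the diet, and 4.84% and 2.26% with atorvastatin. Against chow-fed mice, the shares with atorvastatin were 14.2% and 10.7%. The counts of this list are to be read against these shares.

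The other liver transcription factors were called lower more often than higher on the diet with TMM scaling. This did not hold with total counts or scaled to hepatocyte markers. Of 20, all tested, 10 were called lower and 3 higher (median log2 fold change -0.34), while with atorvastatin 1 was called higher and none lower (median 0.11). Nr1h4, which encodes the bile acid receptor FXR, fell by 0.84 on the log2 scale (SE 0.10, adjusted p = 3.05e-10) and Nr1i3, the receptor CAR, by 1.46 (SE 0.18, adjusted p = 1.32e-08). Klf15, a fasting-induced regulator of amino acid breakdown, was the one called higher with atorvastatin (0.47, SE 0.12, adjusted p = 0.00551), and Rxra, the partner of many nuclear receptors, had 0.26 (SE 0.08, adjusted p = 0.0142). The 3 called higher on the diet were Gata6, Nr2f2 and Foxo1, at 0.50, 0.30 and 0.38, named after their values were seen. With total counts, 4 of the 20 were called lower and 4 higher on the diet and none with atorvastatin. Scaled to hepatocyte markers, 1 was called lower and 10 higher on the diet, and 6 lower and none higher with atorvastatin. Of all 15574 genes, 342 were then called lower and 9379 higher on the diet, and 4496 lower and 73 higher with atorvastatin.

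**Figure D4:**
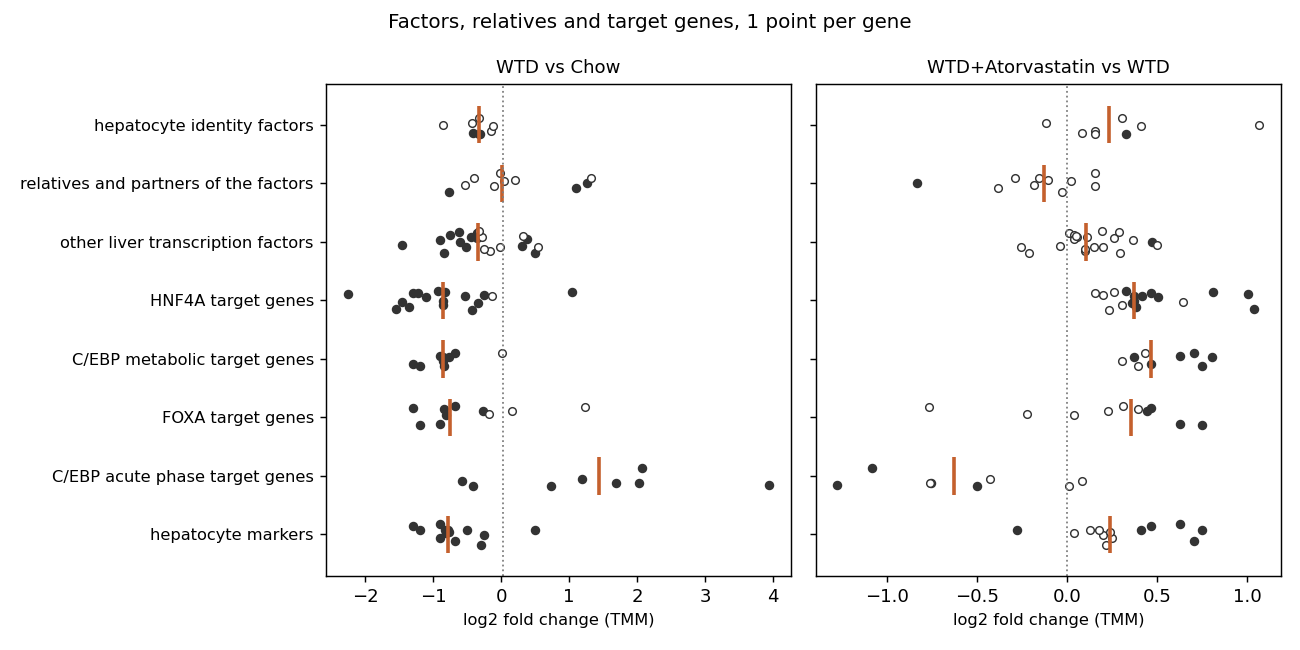
Log2 fold changes with TMM scaling (x axis) of the genes of 8 lists (y axis) for WTD-fed against chow-fed mice (left) and atorvastatin-treated against WTD-fed mice (right), 1 point per gene, filled where the adjusted p was under 0.01, with a bar at the list's median and a dotted line at the median of all tested genes. The median of the HNF4A target genes was -0.86 on the diet and 0.38 with atorvastatin, and that of the factors -0.33 and 0.23.

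Known target genes of the factors had larger median differences than the factors with TMM scaling, a comparison that was not tested and that depends on the scaling. Scaled to hepatocyte markers, the diet median was 0.45 for the factors and -0.11, -0.09 and 0.02 for HNF4A, C/EBP metabolic and FOXA target genes. Alb, Ttr, Tat, Cps1, Apoa1 and Apob are both scaling markers and target genes, so that target medians near 0 are partly set by this scaling. Alb weighs most in it, with 62566425 counts in all against 7109185 for Apoa1. Of 17 HNF4A target genes, 15 were called lower and 1 higher on the diet (median log2 fold change -0.86), and 11 were called higher and none lower with atorvastatin (median 0.38). Ttr, the thyroid hormone carrier transthyretin, went from a median of 7187 to 2781 CPM in WTD-fed mice (log2 fold change -1.29, SE 0.10, adjusted p = 1.93e-15) and 4178 CPM with atorvastatin. Apoc3, an inhibitor of triglyceride clearance, fell by 1.36 on the log2 scale (SE 0.12, adjusted p = 5.48e-14). F12, a clotting factor, and Apom, which carries sphingosine-1-phosphate on lipoproteins, were the clearest with atorvastatin, at 0.36 (SE 0.06, adjusted p = 7.68e-05) and 0.50 (SE 0.10, adjusted p = 0.000195). The called exception on the diet was Pklr, the liver pyruvate kinase that the sugar sensor ChREBP also drives, with 1.04 (SE 0.22, adjusted p = 0.000179), named here after its value was seen. With total counts 11 of the 17 were called lower and 1 higher on the diet, and 6 higher with atorvastatin. Over all 15574 genes, total counts gave 1100 lower and 5151 higher calls on the diet, and 330 higher with atorvastatin. Scaled to hepatocyte markers, 7 targets were lower and 5 higher on the diet, and 1 higher and 2 lower with atorvastatin. Over all genes this scaling gave 342 lower and 9379 higher calls on the diet, and 73 higher and 4496 lower with atorvastatin.

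Target genes of C/EBP proteins divided by function. Of 9 metabolic targets, 8 were called lower and none higher on the diet (median -0.86), and 6 were called higher and none lower with atorvastatin (median 0.47). Otc, an enzyme of the urea cycle, fell by 0.86 (SE 0.10, adjusted p = 1.44e-10) on the diet, and Alb, the gene of serum albumin, and Tat, a tyrosine-degrading enzyme, were higher with atorvastatin by 0.63 (SE 0.10, adjusted p = 1.81e-05) and 0.75 (SE 0.14, adjusted p = 0.000197). Of 8 acute phase targets, 6 were called higher and 2 lower on the diet (median 1.44), and none was called higher and 4 lower with atorvastatin (median -0.63). Lcn2, the iron-binding protein lipocalin 2, rose from a median of 25.0 to 344 CPM (log2 fold change 3.95, SE 0.39, adjusted p = 4.74e-11) and Saa2, a serum amyloid A gene, from 37.4 to 153 CPM (2.03, SE 0.22, adjusted p = 2.66e-10). With atorvastatin Hp, the haemoglobin carrier haptoglobin, had -0.50 (SE 0.08, adjusted p = 3.27e-05) and Saa3, a serum amyloid A gene also made by macrophages, -1.08 (SE 0.20, adjusted p = 0.00018). The exceptions on the diet were Orm1 and Crp, both acute phase proteins, at -0.42 (adjusted p = 0.000155) and -0.57 (adjusted p = 7.95e-08), named after their values were seen. Scaled to hepatocyte markers, 3 of the metabolic targets were called lower and 1 higher on the diet, while 6 acute phase targets were higher and none lower. With atorvastatin 1 metabolic target was then called higher and none lower (median 0.01), and 7 acute phase targets were called lower. Of all 15574 genes, 9379 were called higher and 342 lower on the diet under this scaling, and 73 higher and 4496 lower with atorvastatin. The counts of the targets under this scaling are to be read against these numbers.

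Of 10 FOXA target genes, 7 were called lower and none higher on the diet (median -0.75), and 4 were called higher and none lower with atorvastatin (median 0.35), namely Tat, Ttr, Alb and Abcc2. Abcc2, the canalicular transporter MRP2, was higher with atorvastatin by 0.45 (SE 0.08, adjusted p = 6.87e-05). The lists share genes, since Ttr, Alb, Tat, Pck1, Otc, G6pc, Apob, Apoa1, Cps1 and Afp stand in more than 1 of the target, marker and fetal lists. The 13 tested hepatocyte markers showed 12 called lower and 1 higher on the diet (median -0.78), and 5 higher and 1 lower with atorvastatin (median 0.24), with Ahsg, a liver-secreted glycoprotein, at -0.90 (SE 0.09, adjusted p = 1.33e-12) and Serpinc1, which encodes antithrombin, at 0.41 (SE 0.07, adjusted p = 8.38e-05). The exception was Hpx, the haem carrier hemopexin, at 0.50 (adjusted p = 8.61e-07) on the diet and -0.28 (adjusted p = 0.00447) with atorvastatin, named after its values were seen. Scaled to those markers, the FOXA list had 3 lower and 2 higher calls on the diet, and 1 higher and 1 lower with atorvastatin (median -0.07). Of all 15574 tested genes, this scaling called 9379 higher and 342 lower on the diet, and 73 higher and 4496 lower with atorvastatin.

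Markers of other cells and of fetal liver moved with the same groups. On the diet 9 of 9 tested cholangiocyte, 6 of 8 macrophage, 4 of 8 stellate cell, 2 of 8 endothelial and 5 of 6 tested fetal liver genes were called higher, against 2 endothelial genes and none of the other lists called lower. No lymphocyte marker was called by edgeR in either comparison (1 of 8 and 0 of 8 at an unadjusted p under 0.05). With atorvastatin 1 cholangiocyte, 4 macrophage, 2 stellate cell and 1 fetal liver gene were called lower, and 1 macrophage, 1 stellate cell and 3 endothelial genes higher. These counts are with TMM scaling. Scaled to hepatocyte markers, no gene of these lists was called higher with atorvastatin, and 5 cholangiocyte, 6 macrophage, 4 stellate cell, 3 endothelial and 3 fetal liver genes were called lower. Of all 15574 genes, 73 were called higher and 4496 lower with atorvastatin under this scaling. On the diet, 6 endothelial genes were then called higher and 1 lower, as with total counts. Of all genes, 9379 were called higher and 342 lower on the diet scaled to hepatocyte markers, and 5151 and 1100 with total counts. Lyz2, a macrophage lysozyme, had log2 fold changes of 3.47 (SE 0.15) and -0.99 (SE 0.12) for diet and drug, Col1a2, a collagen of stellate cells, 3.43 (SE 0.23) and -0.77 (SE 0.17), and Spp1, osteopontin, 2.47 (SE 0.20) and -0.79 (SE 0.16). Cd24a, a fetal liver and bile duct surface protein, had 2.06 (SE 0.21) and -0.67 (SE 0.17), and Clec4g, a lectin of sinusoidal endothelium, -1.20 (SE 0.11) and 0.59 (SE 0.10). Among the markers, Itgam had 0 counts, with 99.9% of its span covered by another gene on the same strand. Prox1 is also known from lymphatic endothelium. Of the endothelial list, Lyve1 (1.56, SE 0.23, adjusted p = 1.3e-07) and Pdpn were called higher on the diet with TMM, whereas Flt4 was not. In whole liver these 3 genes are not taken as markers of lymphatic vessels alone. Their part in the level of Prox1 was not tested.

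Correlations between the factors were mostly weak over all mice, and ran to higher values of either sign within single groups, which were not tested. Over the 42 mice, after subtracting group means from log2 CPM, 1 of 28 pairs passed an adjusted p of 0.05 by Pearson's r in a permutation test within groups, and none passed by Spearman's rho (4 of 28 at an unadjusted p under 0.05). The pair was Hnf4a and Cebpa, with r = 0.53 (p = 9e-05, adjusted p = 0.00252) and rho = 0.46 (p = 0.00263, adjusted p = 0.0728). It was 0.43 in chow-fed, 0.73 in WTD-fed and 0.35 in atorvastatin-treated mice, and r was 0.37 without the 2 mice farthest from the Hnf4a median. Without the 9 libraries no pair passed, although r for Hnf4a and Cebpa was 0.51. Cebpa and Prox1 came next (r = 0.44, p = 0.0043, adjusted p = 0.0602, and rho = 0.43, p = 0.0052, adjusted p = 0.0728), with -0.11 in chow-fed, 0.72 in WTD-fed and 0.32 in atorvastatin-treated mice. Hnf4a and Prox1, whose proteins interact, had r = 0.12 over all mice (p = 0.476, adjusted p = 0.646, and rho = 0.13, p = 0.433, adjusted p = 0.713), made up of -0.63 in chow-fed, 0.75 in WTD-fed and -0.37 in atorvastatin-treated mice. Cebpa and Cebpb had r = -0.32 (p = 0.0313, adjusted p = 0.292, and rho = -0.24, p = 0.142, adjusted p = 0.459). Mice share the extraction and sequencing of their library among all genes, and weak-gene loss went with Foxa1 (r = 0.37) and against Foxa2 (r = -0.37) over the same 42 mice, given as a description.

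**Figure D5:**
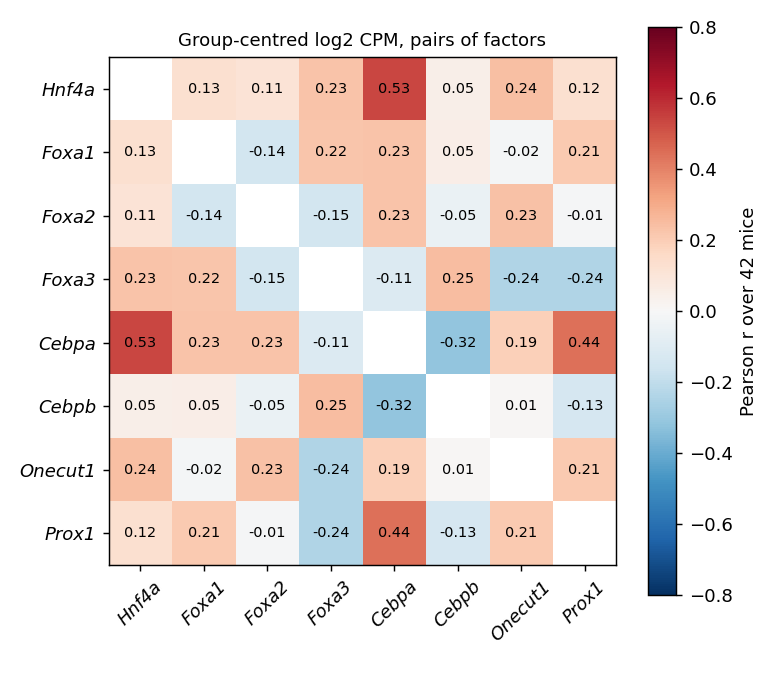
Pearson's r (colour and number) between each pair of the 8 factors (both axes) over 42 mice, from log2 CPM with the group means subtracted. The value of 0.53 for Hnf4a and Cebpa is the highest of the 28, and -0.32 for Cebpa and Cebpb the lowest.

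The genes whose levels followed each factor most closely over the 42 mice, by Pearson's r of the same group-centred values among the 15574 tested genes, are given as a description. For Hnf4a they were Prpsap1 (0.75), Zbtb7b (0.74) and Rxra (0.73), for Cebpa Slc9a3r1 (0.82), Mettl7a1 (0.81) and 0610005C13Rik (0.81), and for Prox1 Slc22a23 (0.82), Epas1 (0.79) and Acsl1 (0.73). Epas1 encodes HIF-2α and Acsl1 an enzyme that activates fatty acids. For the Prox1 genes r was at least 0.74 in each of the 3 groups, whereas Rxra with Hnf4a had 0.90 in WTD-fed and 0.20 in atorvastatin-treated mice. Foxa1 was followed by Setdb1 (0.75), Zswim7 (0.66) and Pyroxd1 (0.65), Foxa2 by Arrdc4 (0.67), Gm11437 (0.64) and Leng1 (0.62), and Foxa3 by Dynlt1f (0.65), Gpx7 (0.64) and Prpf4 (0.63). Cebpb was followed by Osgin1 (0.62), Dock11 (0.60) and Apcs (0.55), the last an acute phase protein of the mouse with 0.81 in WTD-fed and -0.02 in atorvastatin-treated mice. Onecut1 was followed by Ncoa4 (0.67), A230056P14Rik (0.67) and Kmt2b (0.65), which rests on its few counts. Each is among the 3 highest of all tested genes for its factor, and some of its height comes from that choice.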

How the data were processed

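The authors isolated total RNA from snap-frozen liver, made strand-specific libraries from poly(A) RNA, aligned the reads with STAR 2.5 to GRCm38 and counted them per gene with HTSeq 0.6.1p1 (tools and build per the labels). The deposited values are raw counts for 54446 genes in 42 mice, 1 column per mouse, and the summary lines of the counter (12.9% of all counts on average) stayed out of totals and tests. Gene names, positions and exon lengths came from GENCODE vM21, which matched 54409 genes by identifier. Library totals were 15661381 to 36224054 counts. The total sets the counting error, and the spread among mice the rest.

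With filterByExpr (minimum count 10, minimum total 15), 15574 genes were kept. TMM set the library sizes, and edgeR 4.0.16 (R 4.3.3) fitted all 42 mice in 1 quasi-likelihood model with robust estimation, no covariates and Benjamini-Hochberg adjustment. Adjusted p under 0.01 was called. The steps were tested on simulated counts. DESeq2 1.42.0 and limma-voom (limma 3.58.1) were alternatives, and the closing section gives their effect. CPM use TMM-scaled library sizes, and log2 CPM for correlations a prior count of 2. Ratios used counts plus 0.5 and a 2-sided permutation test. Named were all 8 factors, 11 relatives and partners (2 others fixed with them are not reported here), genes annotated over a factor, the 2 genes with the smallest p of each other list in each of the comparisons of WTD with Chow and of WTD+Atorvastatin with WTD (for the marker and fetal lists only some of these, with counts for all), and the 3 genes most like each factor. The members and the 14 gene lists were chosen with earlier results of these data known. Groups follow the labels, 1 animal per library, and no batch is given.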

Additional observations from a re-analysis of the deposited data

Results flagged for a closer look

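In the chow-fed group, the only one of a size for the check (10 mice), 2 of 10 genes tested had a mouse that stood far from the others by Dixon's criterion, which chance meets in about 1 of 20 groups. Foxa1 was at 34.56 CPM in mouse AZ2, with the next mouse at 21.58 CPM, and the gap was 0.551 of the whole range against a critical value of 0.466. Cebpb was at 60.61 CPM in mouse AZ5, with the next at 25.89 CPM and a gap of 0.640 of the range. The libraries of these mice lacked 57.3% and 43.1% of weak genes, and the part of that loss in the values was not tested.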

How the results depend on the processing

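Factors called in WTD-fed against chow-fed mice numbered 3, and 5 at an adjusted p under 0.05, 5 with limma-voom, 5 scaled to hepatocyte markers and 0 with total counts, a setting chosen after seeing the data, as were the antisense ratios. With atorvastatin against WTD the number was 1, and 4 with limma-voom, 3 scaled to hepatocyte markers, 0 with total counts and 2 without the 9 libraries. For atorvastatin-treated against chow-fed mice it was 2, and 1 scaled to hepatocyte markers, 0 with total counts, 1 without the 9 libraries and 1 with the share of missing weak genes as covariate. Leaving out each mouse in turn gave 3 to 4, 1 to 1 and 1 to 2. Differences in the mean log2 ratio of Cebpb to Cebpa rose without the 9 libraries to 0.8082 (WTD against Chow) and 0.8994 (WTD+Atorvastatin against Chow). Without these libraries 0 pairs of factors passed the correlation test. Scaled to hepatocyte markers, the diet differences turned to 0.4589 (Hnf4a), 0.6055 (Foxa1), 0.4641 (Foxa2), 0.3757 (Foxa3), 0.4394 (Cebpa), 0.6865 (Cebpb) and 0.3256 (Prox1), those with atorvastatin against WTD to -0.06896 (Hnf4a), -0.2634 (Foxa1), -0.1463 (Foxa2), -0.2682 (Cebpa), -0.3326 (Prox1) and -0.1926 (Prox1os), and against Chow to 0.3178 (Foxa2) and 0.1712 (Cebpa). These turns follow from the scaling, which moved the median of all genes by 0.78, -0.41 and 0.37. With total counts, the diet values of Foxa1 and Cebpb turned to 0.1638 and 0.201, those with atorvastatin of Foxa1, Cebpa and Prox1 to -0.005073, -0.00573 and -0.07595, and that of Foxa2 against Chow to 0.1182. Values not called that changed sign, for causes not tested, were Foxa1 (0.07297) and Cebpb (0.2801) on the diet with limma-voom, and Cebpb (0.3015) without the 9 libraries. For atorvastatin-treated against chow-fed mice they were Hnf4a with limma-voom (-0.005008), upper-quartile scaling (-0.01049) and 2 groups only (-0.00658), Foxa1 with DESeq2 (-0.004796), RLE (-0.004763), upper-quartile scaling (-0.02069) and 2 groups only (-0.01345), and Onecut1 without the 9 libraries (-0.0003779) and with the covariate (-0.02915). Leaving out single mice gave -0.1968 to 0.0433 for Foxa1 and -0.2342 to 0.1731 for Cebpb on the diet, and, against Chow, -0.02665 to 0.05046 for Hnf4a, -0.0426 to 0.198 for Foxa1, -0.09186 to 0.01714 for Foxa2 and -0.04891 to 0.4 for Onecut1. Of all genes, 1106 were called with atorvastatin against WTD, and 3145 with limma-voom, 1664 without the 9 libraries and 4569 (73 higher) scaled to hepatocyte markers, which on the diet called 9721 (9379 higher) instead of 5224. Onecut1 could not be fitted with at least 10 counts in every mouse. No paired analysis was possible because the mouse numbers name different animals in each group.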
